A study of Saccharomyces cerevisiae BY4741 with 24 samples.

Results

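The proteasome genes of budding yeast were followed through 8 groups of cultures that differed in glucose and in time. The 35 genes described here were taken by name from the annotation of the array, and all 35 were measured among the 5449 Saccharomyces cerevisiae genes tested. They comprise 32 subunits, 14 of the core particle and 18 of the regulatory particle, together with the assembly factor UMP1, the activator BLM10 and the transcription factor RPN4. Each gene had 1 probe set (a group of short probes for 1 transcript), so no choice between probe sets was needed.

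Cells were of BY4741, a laboratory haploid with the mating type MATa that carries deletions in HIS3, LEU2, MET17 and URA3 in every group. Cultures were started at an OD600 of 0.2 in the rich medium YPD and shaken at 30 °C. Control cultures held 2% glucose and calorically restricted cultures 0.5% glucose, and each was harvested at 12, 18, 24 and 48 h. Each of these 8 groups had 3 arrays, called biological triplicates by the submitters, and the study asked which transcripts change while restricted cells acquire a longer chronological lifespan. The sources do not say whether the cultures were started on different days. The p-values therefore measure the spread between the 3 samples of a group, pooled over the 8 groups.

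The proteasome degrades proteins marked with ubiquitin. Its core particle is a barrel of stacked rings: the outer rings of alpha subunits gate the entry, and the inner rings of beta subunits carry the protease sites. The regulatory particle caps the barrel, with a base of ATPases that unfold the substrate and a lid that removes the ubiquitin. In yeast, Rpn4 binds the promoters of most subunit genes and activates them, and it is itself degraded by the proteasome, which closes a feedback loop. When yeast cells run out of glucose, proteasomes leave the nucleus and gather in cytoplasmic storage granules, a change of protein location that transcript arrays do not measure.

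All values are log2 values as deposited, from 0.60 to 12.57 over the arrays, and a difference is given as estimate ± SE from limma, a linear model with moderated variances. A positive sign stands for a higher value under restriction or at the later harvest, and a gene was called where its p-value, adjusted by the Benjamini-Hochberg method over all 5449 genes, was under 0.05. Levels of different genes are not compared, since each probe set has its own response. In RNA from whole cultures, fewer cells that hold a transcript and less of it in each cell cannot be told apart.

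The deposited values had the same distribution on every array, so a difference is relative to the other transcripts of that array. A further scale comes from 12 probe sets for poly-A control transcripts of bacterial origin, called spike-ins here. Their mean differed between restricted and control cultures by -0.40 ± 0.11, -0.16 ± 0.26, -0.27 ± 0.23 and 0.49 ± 0.16 at 12, 18, 24 and 48 h, and the sources used here do not give the amounts added. For the spike-in scale these differences are subtracted from that of every gene, so that a gene whose difference has the same sign and lies nearer to 0 turns its direction. The median gene then lay at 0.35, 0.16, 0.27 and -0.41 at the 4 times. Calls on the spike-in scale take the subtracted differences as known and leave out their SE, except where each array was set by its own spike-ins. The 3 restricted arrays of 48 h stood apart from all others, at 61.9 to 64.7 on a 1st principal component that held 58.2% of the variance, while the other 21 arrays lay between -22.0 and 13.2. Among the marker genes of the strain, LEU2, MET17 and URA3 had group means of at most 2.54, near the background level of 2.29, and HIS3 lay at 4.72 to 5.36. The a-specific genes MFA1, MFA2, STE2 and BAR1 had group means between 4.75 and 10.64 and were lower in 0.5% glucose, in 4 of 4 at 12, 18 and 48 h and in 3 of 4 at 24 h, with medians of -2.26, -1.17, -0.79 and -2.18 in the order of time. Of the alpha-specific genes, STE3 and SAG1 lay above background in every group, at up to 5.93 and 7.03, and STE3 was higher in 0.5% glucose at all 4 times, by 0.74 to 1.36. The part of these shifts in the results below was not tested.

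**Figure D1:**
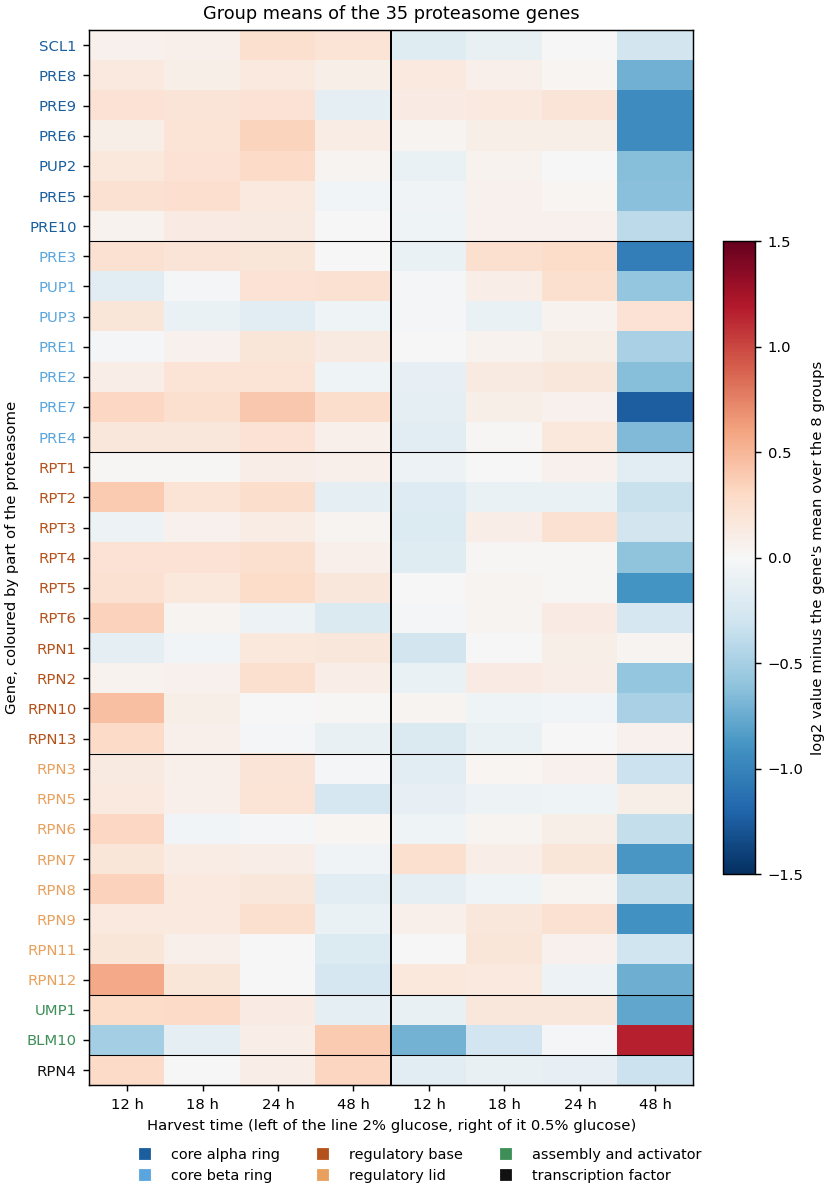
Group means of the 35 proteasome genes, each minus the mean of that gene over the 8 groups, on a log2 colour scale. Rows are genes ordered by part of the proteasome and columns are the 4 harvest times in 2% glucose (left of the line) and in 0.5% glucose (right). The last column, restricted cultures at 48 h, holds the lowest mean of 30 of the 35 genes, and BLM10 has its highest mean there.

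Restricted cultures at 48 h had the lowest transcript levels of the proteasome in the whole series. Of the 35 genes 30 had their lowest group mean there, 28 of them subunits. Against 2% glucose at 48 h, 29 of the 35 were lower and 4 higher, with a median difference of -0.57. Over all genes tested 37.8% were lower and 46% higher at that time, with a median of 0.08. A difference of at least 2-fold was seen for 4 genes, PRE7, PRE6, PRE3 and RPT5, all lower in 0.5% glucose. Of all 5449 genes 580 were called lower and 475 higher by at least 2-fold, so the count of 4 in 35 lay near that share. The genes higher in 0.5% glucose were BLM10, RPN5, PUP3 and RPN13, and the 2 that were not called were RPT6 (-0.03 ± 0.05) and RPN11 (-0.09 ± 0.04). The 3 arrays of one glucose level overlapped those of the other for 1 member, RPT6, and did not overlap for 85.1% of all genes. The median was -1.06 on the spike-in scale, with 33 members lower and only BLM10 higher, where 65.4% of all genes were lower and 19.4% higher. The calls for RPN13 and RPN8 were lost when some single arrays were left out, and the other 31 were kept without each array.

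The difference at 12 h was smaller and depended on the scale. In restricted cultures 28 of the 35 genes were lower and 1, PUP1, was higher, with a median of -0.25. Of all genes 41.2% were lower and 32.2% higher, with a median of -0.05. No member differed by 2-fold, where 155 of all 5449 genes were lower and 304 higher by at least that much. The direction turned on the spike-in scale, with a median of 0.15, 20 members higher and 1, RPT2, lower, where 69.3% of all genes were higher and 11.6% lower. Each other lower value at 12 h given below for a member therefore lost its call or turned on that scale. When each array was set by its own spike-ins, their full spread entered the test. Then 1 member was called higher, where 36.1% of all genes were called higher. An unadjusted p under 0.05 was seen for 3 members, 3 higher and 0 lower.

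At 18 and 24 h fewer members differed. At 18 h 11 of 35 were lower and 0 higher, with a median of -0.05, where 24.8% of all genes were lower and 25.5% higher. At 24 h 13 were lower and 4 higher, with a median of -0.07, where 31.4% and 31.6% of all genes were. The members called lower at these times stood close to the share of all genes, and members called higher were fewer. The medians turned to 0.11 and 0.19 on the spike-in scale, on which 17 and 24 members were called, all higher. On that scale 51.4% of all genes were higher and 10.6% lower at 18 h, and 64.2% and 12.4% at 24 h. On it 0 members were called lower at either time. Each lower value given below for a member at 18 or 24 h therefore lost its call or turned. That statement does not cover the genes of the other pathway lists.

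**Figure D2:**
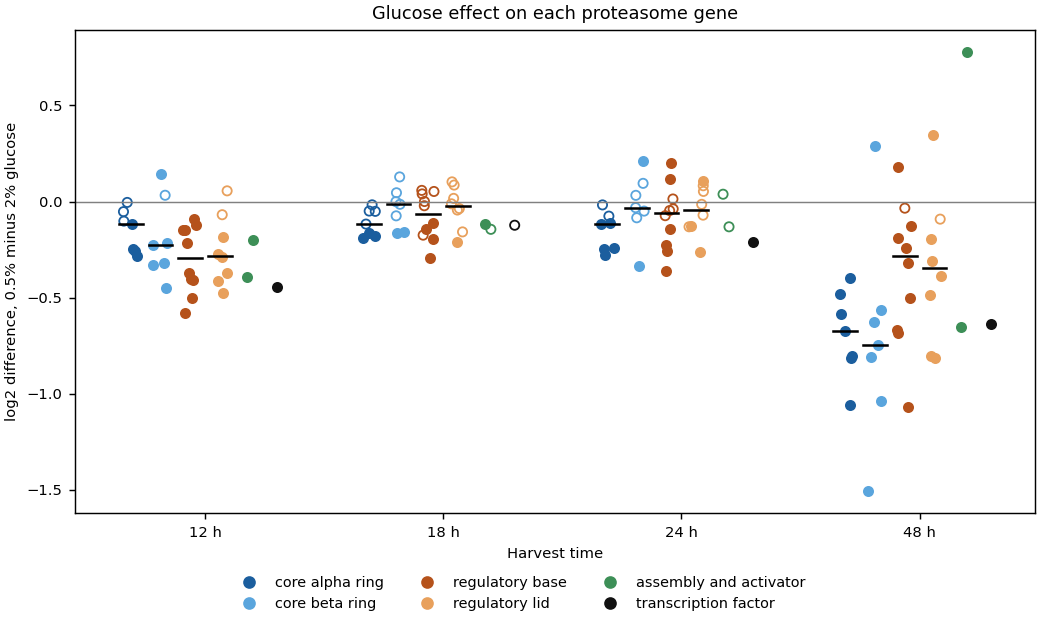
Difference between 0.5% and 2% glucose for each of the 35 genes at each harvest time, on the log2 scale, with 3 arrays per group. Filled points were called at an adjusted p under 0.05, open points were not, colours mark the part of the proteasome and bars are the medians of the 4 subunit groups. At 48 h the core particle rings lie lower than the base and the lid, and BLM10 lies apart at the top.

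The core particle genes fell together at 48 h. Of the 14 genes 13 were lower in 0.5% glucose and 1 higher, with a median of -0.71 (-1.20 on the spike-in scale). The alpha ring was lower in 7 of 7, between -0.40 for PRE10 and -1.06 for PRE6. In the beta ring 6 of 7 were lower, and these include the genes of the 3 catalytic subunits: PRE3, for the caspase-like site, PUP1, for the trypsin-like site, and PRE2, for the chymotrypsin-like site. Their differences were -1.04 ± 0.06, -0.81 ± 0.05 and -0.57 ± 0.05 (adjusted p = 9.4e-13, 5.78e-12 and 2.38e-09).

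PRE7 (YBL041W), for a beta subunit without a protease site, was the member most lowered by restriction at 48 h. In 2% glucose at 48 h its 3 arrays lay at 9.29, 9.27 and 9.34, and in 0.5% glucose at 7.69, 7.84 and 7.84. The groups did not overlap, and the restricted arrays lay below every other array of the series. The difference was -1.51 ± 0.04, or 2.84-fold (adjusted p = 7.88e-19). PRE7 was also the lowest core gene at 12 h, where it lay at 9.31, 9.34 and 9.38 in 2% glucose and at 8.90, 8.91 and 8.88 in 0.5% (-0.45 ± 0.04, adjusted p = 2.35e-09). At 24 h the values were 9.41, 9.43 and 9.47 against 9.08, 9.08 and 9.13 (-0.34 ± 0.04, adjusted p = 3.43e-07). All restricted arrays were below all control arrays at each of these times. The differences were -0.05, -0.07 and -2.00 at 12, 24 and 48 h on the spike-in scale, and only that at 48 h was called.

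PUP3 (YER094C), for another beta subunit without a protease site, went against the rest of the core. At 48 h it lay at 9.12, 9.13 and 9.08 in 2% glucose and at 9.33, 9.38 and 9.48 in 0.5% (0.29 ± 0.04, adjusted p = 5.36e-07). At 24 h the values were 9.00, 9.00 and 9.04 against 9.22, 9.22 and 9.25 (0.21 ± 0.04, adjusted p = 6.53e-05). The restricted arrays were the higher ones at both times without overlap, although on the spike-in scale the 48 h difference turned to -0.20. At 12 h PUP3 was lower, as most core genes were, at -0.21 ± 0.04 (0.19 on the spike-in scale).

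PUP1 (YOR157C) was the only member higher in 0.5% glucose at 12 h. Its arrays lay at 8.73, 8.55 and 8.56 in 2% glucose and at 8.79, 8.77 and 8.70 in 0.5%. The groups overlapped, because replicate 1 of 2% glucose lay above replicate 3 of 0.5%. The difference was 0.14 ± 0.05 (adjusted p = 0.0225), and leaving out replicate 2 or 3 of 2% glucose or replicate 1 or 2 of 0.5% raised the adjusted p to between 0.059 and 0.106.

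SCL1 (YGL011C), for an alpha subunit, was lower in 0.5% glucose at all 4 times as deposited. With the spike-ins as the scale it was higher at 12 h (0.15), not called at 18 and 24 h (-0.03 and 0.02) and lower at 48 h (-0.97). It had the lowest difference of the core at 18 h, with arrays at 9.72, 9.71 and 9.72 in 2% glucose and at 9.46, 9.58 and 9.53 in 0.5% (-0.19 ± 0.04, adjusted p = 0.000261). PRE4, for a beta subunit, had the called core difference nearest to 0 at 18 h, with 9.12, 9.12 and 9.17 against 8.97, 9.04 and 8.92 (-0.16 ± 0.05, adjusted p = 0.0102). For both genes the restricted arrays were lower without overlap. The PRE4 call was lost without replicate 3 of 0.5% glucose (adjusted p = 0.0554).

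The other core genes varied between these. At 48 h PRE8 differed by -0.80, PRE9, whose protein holds the gate of the barrel closed, by -0.81, PUP2 by -0.68, PRE5 by -0.58, PRE1 by -0.63 and PRE4 by -0.74. At 12 h PRE5 (-0.28), PUP2 (-0.26), PRE10 (-0.12), PRE3 (-0.32), PRE2 (-0.22) and PRE4 (-0.33) were called lower. PRE8, PRE9, PRE6 and PRE1 were not called at 12 h, with differences from -0.10 to 0.03. Of the 14 core genes 9 were thus lower at 12 h, with a median of -0.22, and on the spike-in scale 11 were higher and 0 lower. With the replicate number as a block, PRE9 was called at 12 h (adjusted p = 0.0485) and PRE8 lost its call at 24 h (adjusted p = 0.0564). In the same fit RPN11 and RPN13 of the regulatory particle were called at 18 h (adjusted p = 0.0483 and 0.0408).

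The regulatory particle differed less than the core at 48 h, and at 12 h the order of the medians depended on the scale. At 48 h 14 of its 18 genes were lower and 2 higher, with a median of -0.31 against -0.71 for the core. At 12 h 16 were lower and 0 higher, with a median of -0.28 against -0.22, while on the spike-in scale the medians were 0.12 and 0.18. At 18 h 5 of 18 regulatory and 5 of 14 core genes were lower, with 0 higher in either. At 24 h 6 were lower in each particle, with 3 regulatory genes and 1 core gene higher. No test of the difference between the particles was made, since genes are not replicates of a particle.

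**Figure D3:**
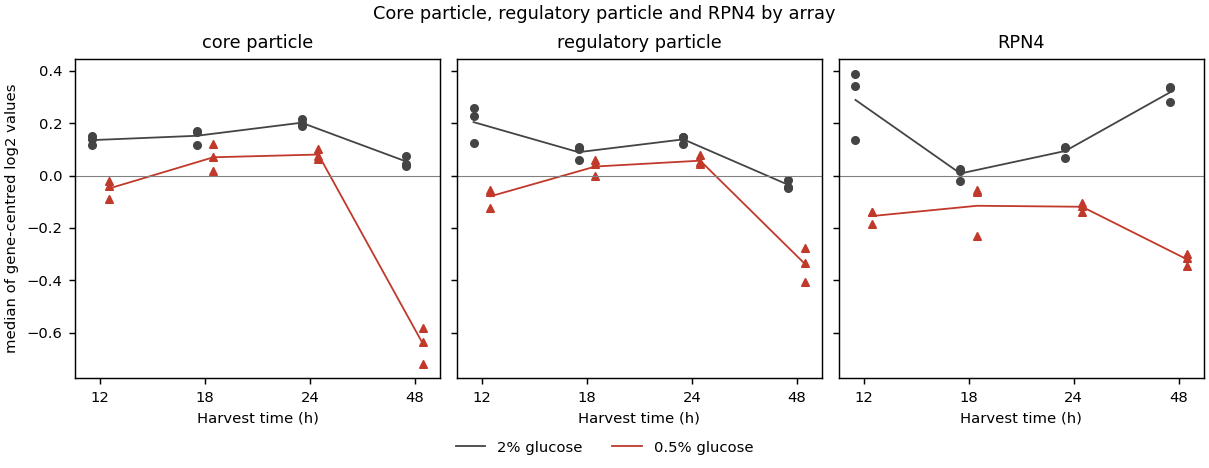
Median over the genes of the core particle (14), over those of the regulatory particle (18), and the value of RPN4, on each array, after each gene's mean over the 24 arrays was subtracted (log2 scale). Points are the 3 arrays of a group, lines join group means, and harvest times are spaced evenly. The restricted arrays of 48 h lie at -0.72 to -0.58 for the core and at -0.41 to -0.28 for the regulatory particle, while RPN4 in 2% glucose lies near its 12 h level at 48 h.

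At 48 h the order of the particles was the same on all 3 arrays of a group. The median of the centred core values was -0.72, -0.63 and -0.58 on the 3 restricted arrays of 48 h, and that of the regulatory particle was -0.33, -0.41 and -0.28. In 2% glucose at 48 h these medians were 0.05, 0.08 and 0.04 for the core and -0.04, -0.05 and -0.02 for the regulatory particle. The core thus lay below the regulatory particle on all 3 restricted arrays and above it on all 3 control arrays of that time. The mean subtracted from each gene includes the restricted 48 h arrays. A deeper fall there raises the centred core values on all other arrays, so the order on the control arrays depends in part on the centring.

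In the base, all 10 genes were lower at 12 h in 0.5% glucose, with a median of -0.29 (0.11 on the spike-in scale). At 48 h 8 were lower and 1 higher, with a median of -0.28. Of the ATPases, RPT5 and RPT4 were lower by 2.10-fold and 1.59-fold at 48 h, while RPT1, RPT2 and RPT3 lay between -0.32 and -0.19. The scaffold genes differed from each other, with RPN2 at -0.68 ± 0.04 and RPN1 at -0.13 ± 0.04. So did the genes of the ubiquitin receptors, with RPN10 at -0.50 ± 0.06 and RPN13 at 0.18 ± 0.08.

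RPT2 (YDL007W), for the ATPase that helps to open the gate of the core, had the lowest base value at 12, 18 and 24 h. Its arrays at 12 h were 9.37, 9.58 and 9.67 in 2% glucose and 8.92, 8.98 and 8.98 in 0.5% (-0.58 ± 0.06, adjusted p = 1.69e-08). At 18 h they were 9.27, 9.37 and 9.41 against 9.06, 9.07 and 9.05 (-0.29 ± 0.06, adjusted p = 0.000367), and at 24 h 9.40, 9.38 and 9.48 against 9.05, 9.06 and 9.06 (-0.36 ± 0.06, adjusted p = 2.09e-05). The restricted arrays were lower without overlap at each time and varied less among themselves. RPT2 was also the 1 member lower at 12 h on the spike-in scale, at -0.18 (adjusted p = 0.00949 by limma). That p-value leaves out the spread of the spike-ins. With each array set by its own spike-ins, 0 members were lower at 12 h even at an unadjusted p under 0.05.

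RPT1, the base gene nearest to 0 at 12 h, lay at 9.65, 9.60 and 9.65 in 2% glucose and at 9.50, 9.57 and 9.57 in 0.5% (-0.09 ± 0.04, adjusted p = 0.0425). Its groups did not overlap, but the call was lost without replicate 1 or 3 of 2% glucose and without replicate 1 of 0.5%, with an adjusted p of up to 0.166. RPT1 also had the smallest range of group means of all 35 genes, 0.27 over the series.

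RPT5 (YOR117W) had the lowest base value at 48 h, with arrays at 8.57, 8.57 and 8.58 in 2% glucose and at 7.43, 7.49 and 7.59 in 0.5% (-1.07 ± 0.04, adjusted p = 6.8e-16). At 18 h it had the called base value nearest to 0, with 8.62, 8.53 and 8.53 against 8.40, 8.47 and 8.48 (-0.11 ± 0.04, adjusted p = 0.037). Restricted arrays were lower without overlap at both times. The 18 h call was lost without replicate 1 of 2% glucose and without replicate 1 or 2 of 0.5% (adjusted p of up to 0.177).

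RPT6 (YGL048C) changed direction between times. At 12 h it lay at 9.73, 9.79 and 9.82 in 2% glucose and at 9.41, 9.39 and 9.43 in 0.5% (-0.37 ± 0.05, adjusted p = 8.44e-07). At 24 h it lay at 9.35, 9.39 and 9.34 against 9.54, 9.57 and 9.57 (0.20 ± 0.05, adjusted p = 0.00144). The restricted arrays were all lower at 12 h and all higher at 24 h, although on the spike-in scale the 12 h difference was 0.03 and was not called. In 2% glucose the group mean fell from 9.78 at 12 h to 9.36 at 24 h and 9.21 at 48 h. In 0.5% glucose it stayed between 9.41 and 9.56 up to 24 h and was 9.18 at 48 h, close to that of 2% glucose.

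RPN13 (YLR421C) was higher in 0.5% glucose at 48 h, with 8.52, 8.40 and 8.50 in 2% glucose and 8.59, 8.67 and 8.70 in 0.5% (0.18 ± 0.08, adjusted p = 0.0426). The groups did not overlap. The call was lost without replicate 2 or 3 of either group, with an adjusted p from 0.0594 to 0.148, and the sign turned on the spike-in scale to -0.31. At 12 h the same gene was lower by 0.50 ± 0.08 on the log2 scale, the second of the base after RPT2, with -0.10 on the spike-in scale. RPT3, RPT4, RPN1, RPN2 and RPN10 were lower at 12 h by between 0.12 and 0.41 on the log2 scale.

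In the lid, 6 of 8 genes were lower in 0.5% glucose at 12 h, with a median of -0.28 (0.12 on the spike-in scale, with 3 higher and 0 lower), and RPN7 (0.06) and RPN9 (-0.07) were not called. At 48 h 6 were lower and 1 higher, with a median of -0.35. The lowest at that time were RPN7, at -0.82 ± 0.05, and RPN9, at -0.80 ± 0.05, which had not been called at any of the earlier times. RPN12, RPN6, RPN3 and RPN8 followed, at -0.49, -0.39, -0.31 and -0.19.

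RPN7 (YPR108W), for a scaffold subunit of the lid, lay at 8.55, 8.60 and 8.62 in 2% glucose and at 7.69, 7.78 and 7.86 in 0.5% at 48 h (adjusted p = 1.71e-12). The restricted arrays were lower by more than the spread of either group. In 0.5% glucose its group means had been 8.89, 8.75 and 8.83 at 12, 18 and 24 h.

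RPN5 (YDL147W), for another scaffold subunit of the lid, moved the other way. At 48 h it lay at 9.33, 9.45 and 9.52 in 2% glucose and at 9.85, 9.69 and 9.80 in 0.5% (0.34 ± 0.09, adjusted p = 0.00143). At 24 h it had been the lowest lid gene, with 9.85, 9.88 and 9.94 against 9.64, 9.60 and 9.64 (-0.26 ± 0.09, adjusted p = 0.0157). The groups did not overlap at either time and changed places between them. As deposited, the level fell in 2% glucose by 0.45 ± 0.09 on the log2 scale. The step in 0.5% glucose was 0.15 ± 0.09 and was not called, but on the spike-in scale all 8 lid genes, RPN5 among them, were lower in it. The 48 h difference was -0.15 on the spike-in scale and was not called, and the 24 h call was lost without replicate 3 of 2% glucose (adjusted p = 0.0532). RPN5 also had the widest spread of any member within a group, an SD of 0.29 in 2% glucose at 12 h, where its arrays lay at 9.51, 9.96 and 10.04, and its call at that time (-0.27 ± 0.09) was lost without replicate 2 or 3 of that group.

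RPN8 (YOR261C), whose protein pairs with the ubiquitin-removing enzyme Rpn11, had the lowest lid value at 12 and 18 h. Its arrays at 12 h were 9.877, 10.004 and 10.018 in 2% glucose and 9.34, 9.57 and 9.56 in 0.5% (-0.47 ± 0.07, adjusted p = 6.22e-06), with the restricted arrays all lower. At 18 h they were 9.61, 9.85 and 9.86 against 9.52, 9.65 and 9.53 (-0.21 ± 0.07, adjusted p = 0.023). Those groups overlapped, and the call was lost without replicate 2 or 3 of 2% glucose and without replicate 1 or 3 of 0.5% (adjusted p from 0.0712 to 0.108). The 12 h difference was -0.07 on the spike-in scale and was not called.

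RPN11 (YFR004W), for the ubiquitin-removing enzyme of the lid, was the lid gene nearest to 0 of those called at 12 h. It lay at 8.96, 9.01 and 9.03 in 2% glucose and at 8.88, 8.81 and 8.77 in 0.5% (-0.18 ± 0.04, adjusted p = 0.000647). The restricted arrays were lower without overlap, and the sign turned on the spike-in scale to 0.22. At 24 h the highest lid gene was RPN6, with 9.32, 9.28 and 9.39 in 2% glucose against 9.46, 9.48 and 9.38 (0.11 ± 0.05, adjusted p = 0.044). Its groups overlapped, and leaving out replicate 1 or 2 of either group ended the call, with an adjusted p of up to 0.166.

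**Figure D4:**
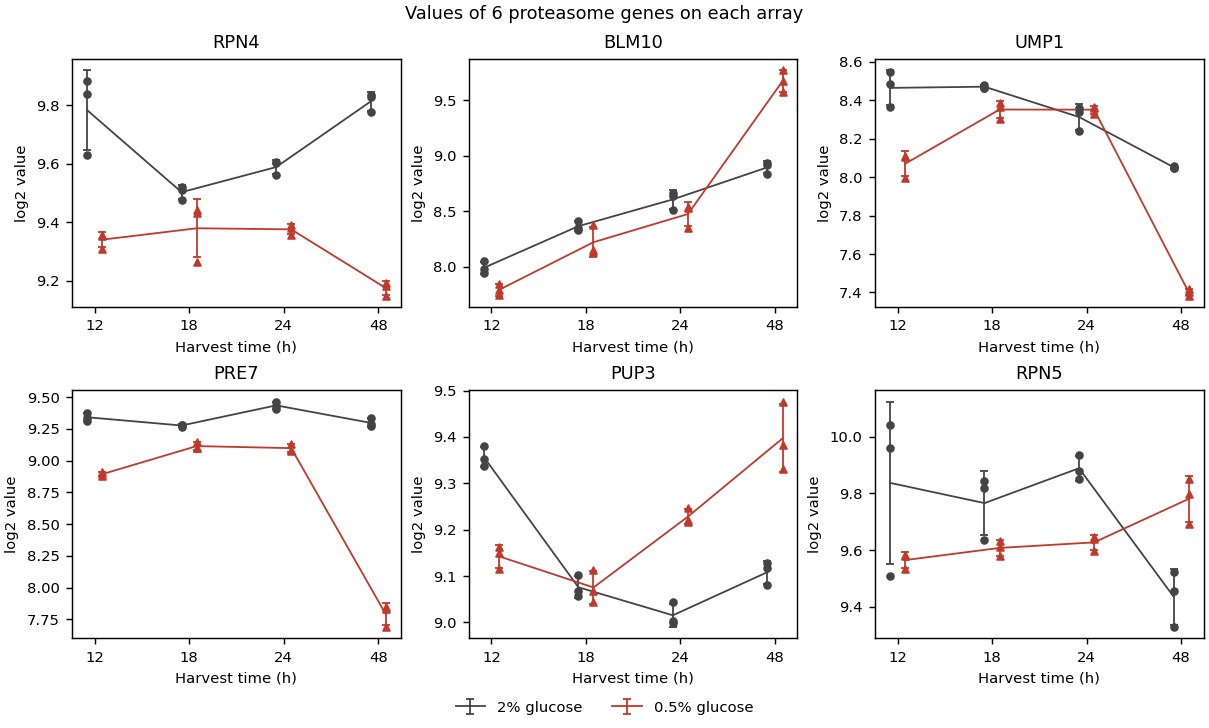
Log2 values of RPN4, BLM10, UMP1, PRE7, PUP3 and RPN5 on every array by harvest time, with group means joined by lines and bars of 1 SD (3 arrays per group, each panel with its own axis). BLM10 rises with time at both glucose levels and is highest at 9.57 to 9.77 in restricted cultures at 48 h. UMP1 and PRE7 are lowest in that group.

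UMP1 (YBR173C), for the chaperone that matures the core particle and is then its first substrate, followed the core genes. At 48 h it lay at 8.06, 8.05 and 8.05 in 2% glucose and at 7.38, 7.40 and 7.42 in 0.5% (-0.65 ± 0.05, adjusted p = 1.54e-11), lower on every restricted array. At 12 h the values were 8.55, 8.37 and 8.48 against 8.10, 8.11 and 7.99 (-0.40 ± 0.05, adjusted p = 1.12e-07), again without overlap, and 0.01 on the spike-in scale. At 18 h they were 8.47, 8.48 and 8.46 against 8.37, 8.39 and 8.30 (-0.12 ± 0.05, adjusted p = 0.0372). That call was lost without any 1 of the 3 arrays of 2% glucose or replicate 1 or 3 of 0.5%, with an adjusted p of up to 0.145.

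BLM10 (YFL007W), for a large cap protein that binds the ends of the core in place of the regulatory particle, was the member with the highest rise. In 2% glucose its 12 h arrays lay at 8.05, 7.98 and 7.94, those of 18 h at 8.41, 8.33 and 8.35, those of 24 h at 8.64, 8.66 and 8.51, and those of 48 h at 8.83, 8.92 and 8.93. In 0.5% glucose they lay at 7.84, 7.74 and 7.79, then at 8.38, 8.13 and 8.15, then at 8.53, 8.54 and 8.35, and at 48 h at 9.57, 9.77 and 9.67. As deposited it was higher at each later time at both glucose levels, and was called in all 6 steps. The steps from 18 to 24 h were -0.02 in 2% and 0.10 in 0.5% glucose on the spike-in scale and were not called, and the other 4 stayed called as higher. With each array set by its own spike-ins, 0 members were called from 12 to 18 h at either glucose level. The same held from 24 to 48 h in 2% glucose, so that BLM10 lost its call in these steps. From 24 to 48 h in 0.5% glucose all 35 members were called, 34 lower and 1, BLM10, higher. The range of its group means, 1.88, was the widest of the 35 genes.

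Restricted cultures had less BLM10 transcript than the control at 12 h (-0.20 ± 0.07, adjusted p = 0.0113) and more at 48 h (0.78 ± 0.07, or 1.71-fold, adjusted p = 4.48e-10), without overlap at either time. It was not called at 18 h (-0.14 ± 0.07) or 24 h (-0.13 ± 0.07). On the spike-in scale the 12 h difference turned to 0.20, and the 48 h difference was 0.29 (adjusted p = 0.000467). When each array was set by its own spike-ins, 31 members were called lower at 48 h and 0 higher, so that BLM10 was not called, and 45.8% of all genes were lower.

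RPN4 (YDL020C), for the activator of the subunit genes, was lower in 0.5% glucose at 12, 24 and 48 h. In 2% glucose its 12 h arrays lay at 9.63, 9.88 and 9.84, those of 18 h at 9.52, 9.51 and 9.47, those of 24 h at 9.60, 9.60 and 9.56, and those of 48 h at 9.83, 9.83 and 9.77. In 0.5% glucose they lay at 9.35, 9.36 and 9.31, then at 9.26, 9.43 and 9.44, then at 9.39, 9.38 and 9.36, and at 48 h at 9.15, 9.19 and 9.18. Each restricted array lay below each control array of the same time, at all 4 times. In the order of time the differences were -0.44 ± 0.05, -0.12 ± 0.05, -0.21 ± 0.05 and -0.64 ± 0.05, with adjusted p-values of 2.11e-07, 0.0631, 0.00173 and 3.24e-10. The 18 h difference passed the threshold without replicate 3 of 0.5% glucose (adjusted p = 0.0434). These values were -0.04, 0.04, 0.05 and -1.13 on the spike-in scale, and only that at 48 h was called.

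RPN4 and the subunit genes did not keep the same course over time. In 2% glucose RPN4 fell from 12 to 18 h by 0.28 ± 0.05 on the log2 scale and rose from 24 to 48 h by 0.22 ± 0.05 (adjusted p = 9.98e-05 and 0.00115). The rise came where 21 of the 32 subunits were lower and 1, PUP3, was higher, and 30.4% and 31.5% of all genes were. On the spike-in scale 8 subunits were lower and 7 higher in that step, with a median of -0.02, and RPN4 was at 0.35. With each array set by its own spike-ins the RPN4 rise was not called (adjusted p = 0.334 by limma). In 0.5% glucose RPN4 fell from 24 to 48 h by 0.20 ± 0.05 (adjusted p = 0.00172), while the subunit median fell by 0.60. At 48 h the glucose difference of RPN4 minus the median difference of the core was 0.07, and minus that of the regulatory particle -0.32. At 12 h these were -0.22 and -0.16, so that RPN4 lay below both.

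Within 2% glucose the members moved little between 12 and 24 h. From 12 to 18 h 10 of 35 were lower and 3 higher, with a median of -0.02, where 37.9% and 30.5% of all genes were. Of these, 8 of the lower genes were in the regulatory particle, led by RPN12 (-0.39 ± 0.04), RPN10 (-0.37 ± 0.06) and RPN6 (-0.35 ± 0.05), and 1, PUP3, was in the core. From 18 to 24 h 7 members rose and 2 fell, their median being 0.06, where 25.2% and 24.5% of all genes were. The medians of both steps turned on the spike-in scale, to 0.03 and -0.20.

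From 24 to 48 h in 2% glucose 22 of 35 were lower and 3 higher, with a median of -0.14, where 30.4% of all genes were lower and 31.5% higher. RPN5 (-0.45 ± 0.09), RPT2 (-0.41 ± 0.06), RPN9 (-0.35 ± 0.05) and PRE9 (-0.35 ± 0.05) were the lowest. The lid was lower in 7 of 8, the base in 5 of 10 and the core in 9 of 14. The higher genes were BLM10, RPN4 and PUP3. The median was -0.01 on the spike-in scale, with 9 members higher and 9 lower, where 47.3% and 19.5% of all genes were.

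Within 0.5% glucose, on the deposited scale, a small rise came before the fall. From 12 to 18 h 15 of 35 were higher and 1, RPN7, was lower, with a median of 0.10, where 30% of all genes were higher and 30.2% lower. BLM10 (0.43 ± 0.07), PRE3 (0.34 ± 0.06), RPT3 (0.30 ± 0.05), RPN1 (0.29 ± 0.04) and UMP1 (0.28 ± 0.05) rose most. On the spike-in scale 4 members rose and 12 fell, their median being -0.09, where 12% and 54.7% of all genes did. From 18 to 24 h 6 members rose and 2 fell, their median being 0.04, where 24.6% and 24.1% of all genes were, and the median turned to -0.12 on the spike-in scale. Leaving out replicate 1 or 3 of either time took that count to 5.

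From 24 to 48 h in 0.5% glucose 30 of 35 members were lower and 2 higher, with a median of -0.58, where 39.4% of all genes were lower and 45.8% higher, with a median of 0.07. The fall reached 2-fold for PRE3 and PRE7 (each -1.31), PRE9 (-1.14), RPN9 (-1.13), RPN7 (-1.06) and PRE6 (-1.03). Of all 5449 genes 707 fell and 668 rose by at least 2-fold. The higher genes were PUP3 (0.17 ± 0.04) and BLM10 (1.20 ± 0.07), and RPN1, RPN13 and RPN5 were not called. The core median fell by 0.78 and that of the regulatory particle by 0.42. All 32 calls were kept without each array in turn, and on the spike-in scale 34 members were lower and BLM10 alone higher, where 70.9% and 18.1% of all genes were.

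The glucose effect itself changed between times, by limma's tests of the difference of effects. From 24 to 48 h the effect became more negative for 28 of 35 members and more positive for RPN5 (0.61 ± 0.13) and BLM10 (0.91 ± 0.10), with a median of -0.45, where 35.2% and 39.5% of all genes were called in these directions. Of the core genes 13 of 14 were among the 28, led by PRE7 (-1.17 ± 0.06) and PRE3 (-1.13 ± 0.09), and 13 of the 18 regulatory genes, led by RPN7 (-0.90 ± 0.07). RPN4 was also among them, at -0.43 ± 0.08 (adjusted p = 3.62e-05). By the spike-in scale 33 members became more negative and 0 more positive, where 77.9% and 7.95% of all genes did, and RPN5 (-0.15) and BLM10 (0.15) were not called.

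From 12 to 18 h the effect became less negative or more positive for 19 of 35 members and moved the other way for 0, where 32.5% and 24.5% of all genes were called. These were 13 of 18 regulatory genes, led by RPN6 (0.46 ± 0.06) and RPN12 (0.38 ± 0.06), 4 of 14 core genes, all in the beta ring, UMP1 and RPN4 (0.32 ± 0.08, adjusted p = 0.00125). With the spike-ins as the scale, 1 was higher and 9 were lower, where 12.6% and 46.7% of all genes were, and RPN4 was at 0.08 and not called. An F test of whether the effect of glucose was equal at the 4 times called all 35 members, and 91.7% of all genes. Without the 48 h arrays it called 19, and 70.7% of all genes.

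Other genes of the pathway were taken from 4 lists, whose counts are set against the shares of all genes. As deposited, 41.2%, 24.8%, 31.4% and 37.8% of all genes were lower at 12, 18, 24 and 48 h. Higher were 32.2%, 25.5%, 31.6% and 46%. On the spike-in scale 11.6%, 10.6%, 12.4% and 65.4% were lower, and 69.3%, 51.4%, 64.2% and 19.4% higher. Of the 9 assembly chaperones 5 were lower and 3 higher at 12 h, where 41.2% and 32.2% of all genes were. On the spike-in scale 2 were lower and 4 higher. The chaperones of the base, named here after their values were seen, were NAS2, NAS6, HSM3, RPN14 and TMA17, and all 5 were lower. Of those of the core, ADD66, IRC25 and POC4 were higher and PBA1 was not called. Since this grouping was made on the values themselves, a split by particle was not tested. On the spike-in scale NAS6 and RPN14 turned, to 0.14 and 0.02, and HSM3 and NAS2 were at -0.17 and -0.07. TMA17, a stress-induced chaperone of the base, had the lowest difference of the list, with 9.75, 9.80 and 9.86 in 2% glucose and 8.65, 8.72 and 8.66 in 0.5% (-1.13 ± 0.07, adjusted p = 1.53e-12). That difference was -0.72 on the spike-in scale.

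At 48 h 4 chaperones were higher and 4 lower (0 and 7 on the spike-in scale), with base chaperones in both directions as deposited. Of all genes 46% were higher and 37.8% lower (19.4% and 65.4% on the spike-in scale). RPN14 lay at 6.33, 6.52 and 6.42 in 2% glucose and at 4.31, 4.60 and 4.44 in 0.5% (-1.97 ± 0.07, or 3.91-fold, adjusted p = 7.04e-17). HSM3 (0.51 ± 0.08) and NAS2 (0.41 ± 0.06) were higher, and on the spike-in scale neither was called, at 0.02 and -0.08. At 18 h HSM3 (-0.37), NAS6 (0.36) and TMA17 (-0.24) were called. At 24 h 5 were higher and 2 lower, led by RPN14 (-0.34), HSM3 (-0.26) and NAS6 (0.23). The spike-in scale gave 6 higher and 1 lower at 18 h, and 7 higher and 0 lower at 24 h.

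Of the 10 genes on the list of associated proteins, 4 were higher and 4 lower at 48 h, close to the shares of all genes. On the spike-in scale 2 were higher and 7 lower. SEM1 was counted on this list and not among the 8 lid genes above. CIC1, for a proteasome-binding protein that also acts in ribosome assembly, lay at 5.36, 5.28 and 5.33 in 2% glucose and at 7.71, 7.71 and 7.42 in 0.5% (2.29 ± 0.09, or 4.90-fold, adjusted p = 2.49e-16). UBP6, for the ubiquitin-removing enzyme bound to the base, was lower at -1.27 ± 0.07, and ECM29, for a protein that ties the core to the regulatory particle, at -1.12 ± 0.05. CIC1 was also the 1 higher gene of the list at 12 h (0.66 ± 0.09), where 7 were lower, with the shuttle factors DDI1 (-0.54 ± 0.05) and DSK2 (-0.38 ± 0.05) below the others. By the spike-in scale 6 were higher and 1, DDI1, was lower at 12 h, and DSK2 was at 0.02. At 18 h 6 were lower and 1 higher, with DSK2 and SEM1 at -0.30 and ECM29 at -0.25. At 24 h 3 were lower and 3 higher, with ECM29 at -0.64, CIC1 at 0.29 and DSK2 at -0.29. The spike-in scale gave 3 higher and 1 lower at 18 h, and 6 higher and 1 lower at 24 h.

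Of the 13 genes for ubiquitin and Cdc48, 7 were lower and 4 higher at 48 h (9 and 2 on the spike-in scale). Of all genes 37.8% were lower and 46% higher (65.4% and 19.4% on the spike-in scale, close to the shares of the list). UBC4, for a ubiquitin-conjugating enzyme, lay at 8.85, 8.94 and 8.97 in 2% glucose and at 6.95, 6.98 and 6.74 in 0.5% (-2.03 ± 0.08, or 4.09-fold, adjusted p = 3.79e-16). DOA1, for a partner of the ATPase Cdc48, was at -1.503 ± 0.045 and UBA1, for the enzyme that activates ubiquitin, at -1.34 ± 0.05. UBC4 was also the lowest of the list at 24 h, at -1.18 ± 0.08, where UFD4 (-0.48) and UBC5 (0.34) followed, and at 18 h, at -0.35 ± 0.08, where UBR2 (-0.30) and CDC48 (-0.19) followed. The spike-in scale gave 7 genes of the list higher and 1 lower at 18 h, and 9 higher and 2 lower at 24 h. On it 51.4% and 64.2% of all genes were higher at these times. UBC4 and UBC5 are closely similar genes, and whether their probe sets detect each other's transcript was not tested. At 12 h 7 were lower and 2 higher, with UFD1 (-0.45), CDC48 (-0.32) and UBR2, for a ligase that marks Rpn4 for degradation (-0.30), at the lower end. By the spike-in scale 9 were higher and 0 lower at 12 h, where 69.3% and 11.6% of all genes were. UFD1 was at -0.04, CDC48 at 0.09 and UBR2 at 0.10 on that scale, none of them called.

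The 4 transcription factors known to activate RPN4 in yeast were 3 higher and 1 lower at 48 h as deposited, and 0 higher and 3 lower on the spike-in scale. HSF1, the heat shock factor, was lower at all 4 times as deposited, by 0.61 ± 0.05, 0.34 ± 0.05, 0.29 ± 0.05 and 0.19 ± 0.05 on the log2 scale at 12, 18, 24 and 48 h. YAP1, a factor of the oxidative stress response, was lower at 12 h (-0.40 ± 0.07) and higher at 48 h (0.42 ± 0.07). PDR3, a factor of drug resistance, was lower at 12, 18 and 24 h and higher, with overlapping arrays, at 48 h (0.16 ± 0.07). By the spike-in scale HSF1 was called lower at 12, 18 and 48 h (-0.21, -0.18 and -0.68) and not at 24 h (-0.02). There PDR3 was called lower at 48 h alone (-0.33), and YAP1 was not called at 12 or 48 h, at 0.01 and -0.07. These calls leave out the SE of the subtracted spike-in difference. At 18 h that SE was 0.26, larger than the HSF1 value of that time.

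**Figure D5:**
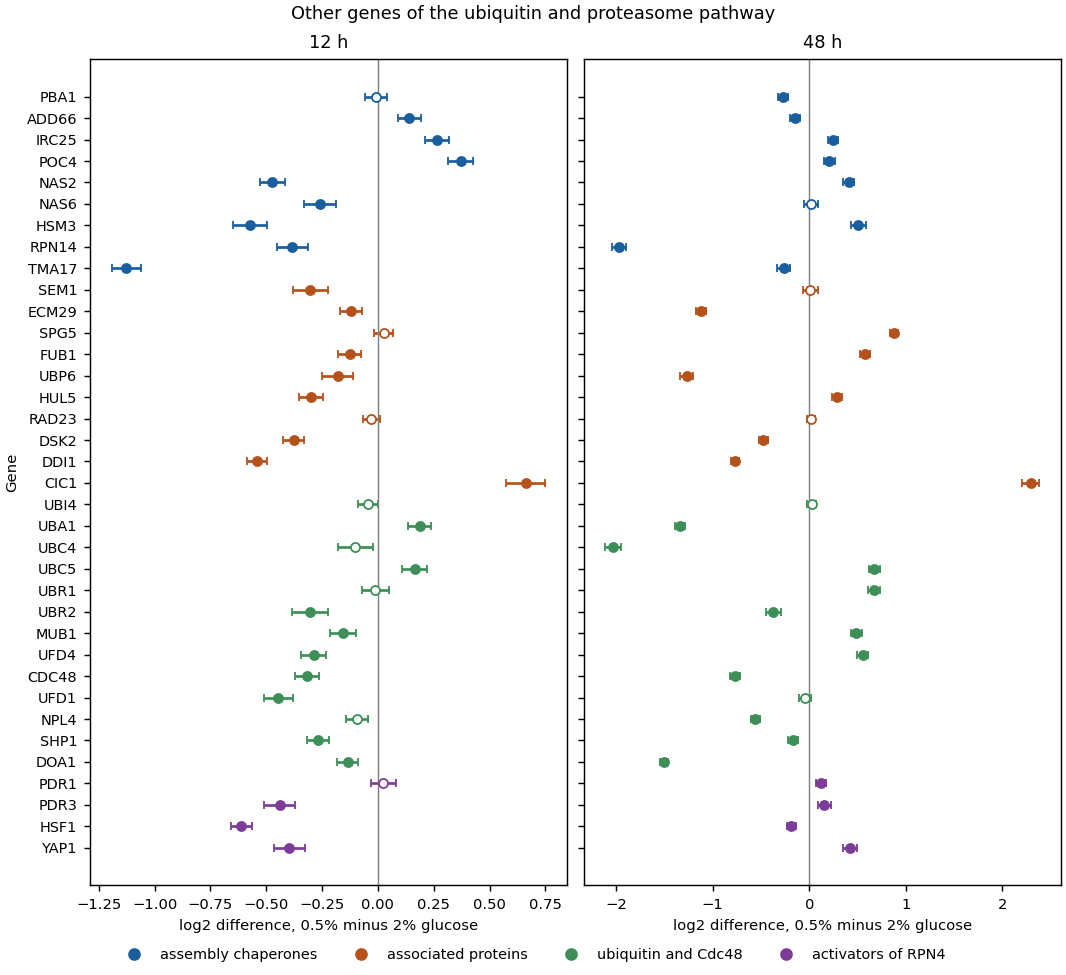
Difference between 0.5% and 2% glucose for 36 other genes of the ubiquitin and proteasome pathway at 12 and 48 h, on the log2 scale, with bars of 1 SE. Filled points were called at an adjusted p under 0.05, and the panels have different horizontal axes. UBC4 and RPN14 lie lowest at 48 h and CIC1 highest, and TMA17 lies lowest at 12 h.

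The genes outside the family whose 8 group means were most like the mean of the 32 subunits were MMM1, ERG28, MTC1, HXK1, TSA2, ERG9, BET4, GAL10, YDL057W and CDC48, with Pearson's r from 0.975 to 0.984. These points share the low group of restricted cultures at 48 h, and over the other 7 groups r was between 0.806 and 0.895. Of these 10 genes CDC48 was also on the list of ubiquitin and Cdc48 genes. The genes most like RPN4 were HRK1, TFB5, NUP100, HSP78 and MAK10, with r from 0.953 to 0.977 over 8 groups and from 0.929 to 0.966 over the 7. The lists for the subunits and for RPN4 had no gene in common. Against the same mean of the subunits, UMP1 had an r of 0.97, RPN4 of 0.65 and BLM10 of -0.73, and without the restricted 48 h group these were 0.83, 0.38 and 0.12.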

How the data were processed

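RNA from 24 yeast cultures was measured on Affymetrix Yeast Genome 2.0 arrays, which carry short probes for Saccharomyces cerevisiae and Schizosaccharomyces pombe transcripts. Per the labels' protocols, cells were broken with beads, RNA was taken up in TRIzol LS and biotin-labelled cRNA was hybridised. The authors deposited 1 value per probe set and array. These deposited values were read as log2 and as quantile normalized from the values themselves: the sorted values differed between arrays by at most 0.0095. The submitters' processing notes name Partek, without a version, and no source used here gives the background correction or how probes were summarised. The number of arrays, not a read depth, limits the precision, and the median SD within a group was 0.08.

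Of 10928 probe sets 5498 had 1 S. cerevisiae gene, giving 5449 genes; for 47 genes with several, the one with the highest mean was kept. The 1746 S. pombe probe sets served as background, with a 95th percentile of 2.29. limma 3.58.1 (R 4.3.3) fitted all 8 groups together with 16 residual degrees of freedom, and was tested on simulated data; pandas 2.3.3, numpy 2.4.6 and matplotlib 3.10.9 under Python 3.11.15 made the summaries and figures.

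The members, the lists and the spike-in scale were chosen with earlier results of these data known, so lists are described by counts and medians without a test. Values on every array are given for RPN4 and, in each glucose comparison, for the members called with the highest and lowest difference in the core, the base, the lid and the pair UMP1 and BLM10. Of the other pathway lists at most 3 genes per list and comparison are named, those with the largest difference. The 10 genes most like the subunits and the 5 most like RPN4 were taken by Pearson's r over group means.

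Alternatives were renormalization, centring, the spike-in scales, a filter on dim genes, variance trend, array weights, a fit of the arrays compared alone, the mean of probe sets, a replicate block and leaving out each array. Samples of equal replicate number deviated together at 12, 18 and 24 h and in the step from 12 to 18 h in 2% glucose, with correlations from 0.109 to 0.456 over the 3 pairs, but not in every pair at 48 h (0.072 to 0.156) or in the other steps. The labels do not say that a number marks a shared batch, so the pairing rests on these correlations.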

Additional observations from a re-analysis of the deposited data

Results flagged for a closer look

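The glucose effect differed between harvest times for many members by limma's test of the difference itself. From 24 to 48 h it changed for 30 of the 35 members, 28 to the negative side, where 35.2% of all genes were called on that side and 39.5% on the other. From 12 to 18 h it changed for 19, all to the positive side, where 32.5% of all genes were called on that side and 24.5% on the other. On the spike-in scale the latter became 1 positive and 9 negative. The F test over the 4 times called 35 members, where it also called 91.7% of all genes. For RPN4 the effect became more negative from 24 to 48 h, by -0.43 on the log2 scale, with restricted arrays below control arrays at both times. From 12 to 18 h the RPN4 effect changed by 0.32, toward 0, and by 0.08, not called, on the spike-in scale. For BLM10 the effect changed by 0.91 from 24 to 48 h, from a difference that was not called to a higher level in 0.5% glucose on all 3 arrays. On the spike-in scale that change was 0.15 and was not called. What these changes rest on was not tested.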

How the results depend on the processing

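The counts at 48 h, within 0.5% glucose from 24 to 48 h and for the change of the effect from 24 to 48 h kept their main direction and stayed within 1.5 times under every alternative run. The counts named next moved or turned with the scale. With group means on the spike-in scale, the members called were 21, 17 and 24 at 12, 18 and 24 h, 15 and 30 in the steps from 12 to 18 and 18 to 24 h in 2% glucose, 16 and 15 in the same steps in 0.5% glucose, and 10 for the change of the effect from 12 to 18 h. The members' medians then turned to 0.153, 0.109, 0.193, 0.028, -0.203, -0.086 and -0.115 for the first 7 of these. RPN4 turned to 0.054 at 24 h, to -0.17 from 18 to 24 h in 2% glucose and to -0.15 from 12 to 18 h in 0.5% glucose.

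With the spike-ins of each array limma called 1 member at 12 h, 0 at 18 and 24 h, 0 in all steps in 2% glucose and in those up to 24 h in 0.5% glucose, and 0 for the change of the effect from 12 to 18 h. At an unadjusted p under 0.05 there were 3 members at 12 h, 0 at 18 h, 2 at 24 h, 1, 1 and 0 in the steps in 2% glucose, and 0 in the others named. The spread of the spike-ins between arrays enters these tests. Fitting the arrays compared alone gave 7 members at 18 h and 7 from 12 to 18 h in 2% glucose. Array weights gave 15 and the replicate block 14 from 18 to 24 h in 2% glucose, against 9. The block changed no call at 12, 18 and 24 h other than those of PRE9, RPN11, RPN13 and PRE8, and added RPN9 from 12 to 18 h in 0.5% glucose and RPT2 to the change of the effect from 24 to 48 h. The F test without the 48 h arrays, chosen after the data were seen, called 19. RPN4 minus the core median at 48 h was 0.072, against -0.10 for all subunits.

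Leaving out each array gave 25 to 28 members at 12 h, 8 to 10 at 18 h, 12 to 15 at 24 h and 31 to 33 at 48 h. In 2% glucose the steps gave 8 to 14, 8 to 10 and 21 to 23, the 8 of the first without replicate 2 of 12 h. In 0.5% glucose they gave 14 to 17, 5 to 7 and 32, the 5 without replicate 1 or 3 of 18 or 24 h. The changes of the effect gave 16 to 18 from 12 to 18 h and 28 to 30 from 24 to 48 h, and the F test 34 to 35. Of 816 values of single members other than RPN4, 60 lost and 9 gained a call.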
